A study of Homo sapiens with 39 samples.

Results

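Fatty acid oxidation was read here through 35 genes of the mitochondrial and peroxisomal pathway, taken by symbol from a list chosen with earlier results of these data known. Each was found under 1 Ensembl gene identifier among the 63187 genes of the count table. They code for the carnitine shuttle (7 genes), acyl-CoA dehydrogenases (8), the mitochondrial hydratase, dehydrogenase and thiolase steps (6), enoyl-CoA isomerases and dienoyl-CoA reductases (4), the electron transfer flavoprotein and its dehydrogenase (3), peroxisomal enzymes (5) and a pair of regulators. RNA came from a single human line, C4-2B, derived from LNCaP prostate cancer cells and able to grow without androgen. In the panel (21 libraries), cells were harvested after 5 days of DMSO, 5 µM abiraterone acetate, 20 µM enzalutamide, 1 µM olaparib, 10 nM talazoparib, abiraterone acetate with olaparib, or enzalutamide with talazoparib. In the time course (18 libraries), cells received DMSO, 1 µM olaparib or 5 µM olaparib and were harvested at day 1 or day 5. Each of the 13 groups held 3 libraries, and all of them shared the same line and serum-containing medium. Abiraterone (a CYP17A1 inhibitor) and enzalutamide (an androgen receptor antagonist) are called ARPi below, and the PARP inhibitors olaparib and talazoparib PARPi. The labels number the replicates without saying whether they were separate cultures, so p-values measure the spread between these libraries, which may be technical.

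A fatty acid enters the mitochondrion as an acylcarnitine made by CPT1, carried across the inner membrane by SLC25A20 and turned back into acyl-CoA by CPT2. Each round of β-oxidation then shortens the chain through an acyl-CoA dehydrogenase, a hydratase, a hydroxyacyl-CoA dehydrogenase and a thiolase, and the dehydrogenase electrons pass through ETFA and ETFB to ETFDH and the respiratory chain. Very long and branched chains are first shortened in peroxisomes, where ACOX enzymes make hydrogen peroxide, AMACR flips the configuration of methyl-branched acyl-CoAs and CROT exports the shortened chains. Prostate tumours are known for using fatty acids as fuel and for high AMACR, which pathologists stain for.

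Library totals ran from 26932205 to 49833473 counts with a median of 37223200, and no listed gene had fewer than 52 counts in any library, so each of the 35 passed the low-count filter in both experiments. KLK3, the androgen receptor target that codes for PSA, averaged 1450.1 ± 50.7 CPM (counts scaled to a common library size by edgeR, mean ± SD, n = 3) under DMSO in the panel, 485 ± 21.3 under abiraterone and 304 ± 21.7 under enzalutamide. CDKN1A, a p53 target, rose with each PARPi, by 2.18 ± 0.053 (log2 fold change ± SE) for olaparib and 1.98 ± 0.053 for talazoparib. The 10 prostate markers were present in each library, the lowest being KLK2 at 13.9 CPM. Of 28 markers of fibroblasts, endothelium, leukocytes, basal epithelium, hepatocytes, adipocytes and muscle, the highest in any library were VWF at 22.5, COL1A1 at 22.1 and TTR at 6.38 CPM, while MS4A1 had no count. The share of counts from mitochondrially encoded genes moved with treatment: it ran from 9.68% to 10.1% under DMSO in the panel, from 10.9% to 12.3% under an ARPi, from 12.1% to 13.0% under a PARPi and from 13.2% to 13.8% under the combinations. At day 5 of the time course it was 8.24% to 8.38% under DMSO, 10.6% to 11% at 1 µM and 14.3% to 14.6% at 5 µM. The part of this shift in the results below was not tested, and CPM values cannot tell less RNA per cell apart from a larger share of other RNA.

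Levels between genes were compared per length, as CPM per kilobase of the Ensembl canonical transcript, in the DMSO libraries of the panel. ECI2, a peroxisomal and mitochondrial enoyl-CoA isomerase, stood highest at 170.0 ± 2.05 (SD, n = 3), ahead of ECHS1, the short-chain hydratase, at 162 ± 3.75 and ACADVL, the very-long-chain dehydrogenase of the inner membrane, at 124 ± 8.10. The libraries of ECI2 and ECHS1 did not overlap, nor did those of ECHS1 and ACADVL, but ACADVL overlapped with ETFA at 124 ± 4.01. The lowest was CPT1C, the neuronal CPT1 form of the endoplasmic reticulum, at 0.757 ± 0.131, below PPARGC1A at 1.38 ± 0.0890 without overlap. Among the CPT1 forms, the liver form CPT1A stood at 45 ± 1.35 and the muscle form CPT1B at 1.42 ± 0.158 CPM per kilobase. CPT1B, ACAD11 and AMACR lie in annotated readthrough genes that share their exons, so their counts depend on how Salmon split the reads.

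**Figure D1:**
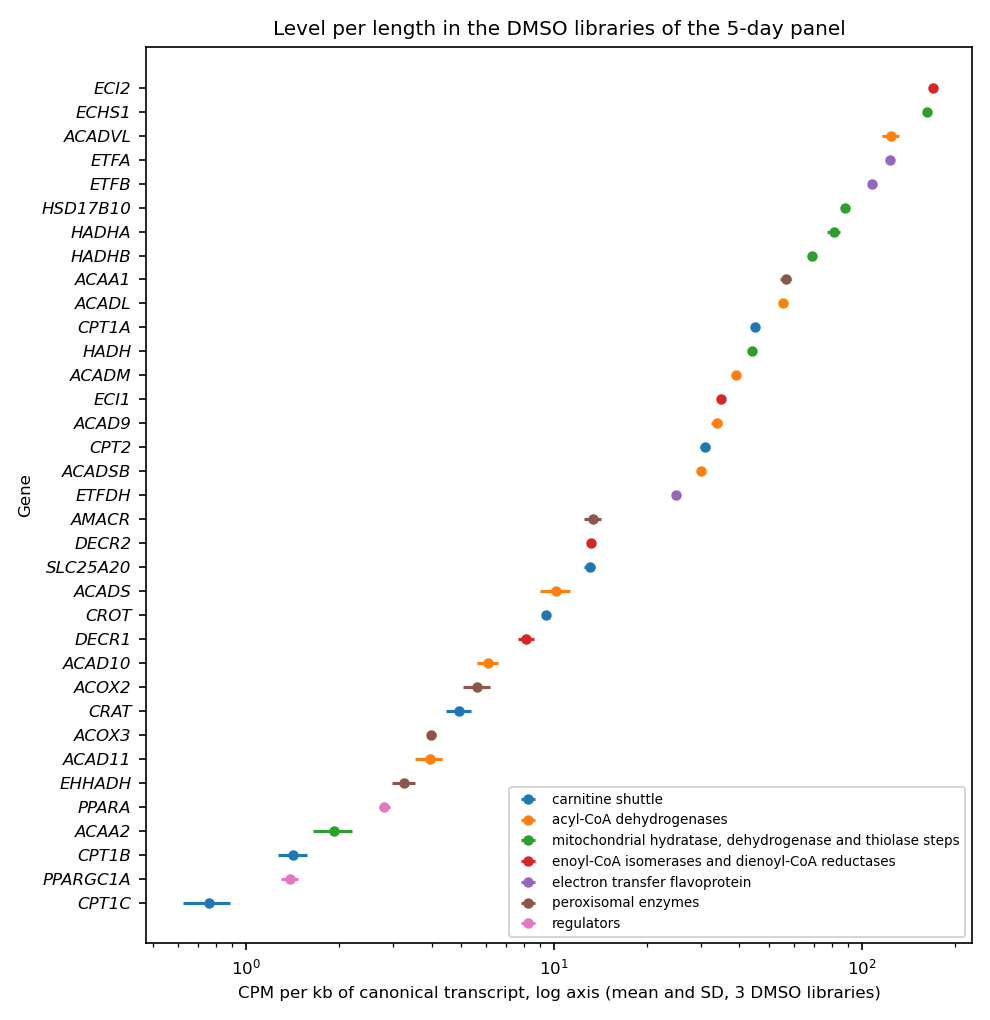
Level of each of the 35 genes in the panel's DMSO libraries, as CPM per kilobase of canonical transcript on a log axis, with points and bars for the mean and SD of 3 libraries and colours for the role. Values span from 0.757 for CPT1C to 170.0 for ECI2.

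Each treatment was compared with DMSO of its own experiment and day by edgeR's quasi-likelihood test with Benjamini-Hochberg adjustment over all genes tested, and "rose" or "fell" is used below only for an adjusted p under 0.05. Under the ARPi the pathway split, with 14 genes that rose and 14 that fell under abiraterone (40.0% each, against 25.8% and 27.1% of all 18625 genes tested) and 14 and 16 under enzalutamide (against 27.0% and 26.3%). Under the PARPi nearly all calls were rises, 19 against 2 falls with olaparib (54.3% of the genes, against 19.6% of all genes rising and 16.0% falling) and 21 against 2 with talazoparib (60.0%, against 18.4% and 15.4%). The combinations gave 15 rises and 12 falls for abiraterone with olaparib, where 31.1% of all genes rose and 31.1% fell, and 14 and 16 for enzalutamide with talazoparib, where 31.2% rose and 31.3% fell. The median log2 fold change of the 35 genes was 0.12 with olaparib and 0.15 with talazoparib, beside 0.015 and 0.020 over all genes, while it was -0.041 with abiraterone and 0.032 with enzalutamide, beside 0.00030 and 0.017. With scaling by total counts the panel olaparib split became 15 rises and 4 falls, and the medians became 0.079 with olaparib, 0.10 with talazoparib, 0.027 with abiraterone and 0.085 with enzalutamide. That scaling moved all genes alike, with all-gene medians of -0.025, -0.026, 0.069 and 0.070 in the same order. In size, whatever the sign, the median change of these genes was 0.43 with abiraterone and 0.35 with enzalutamide on the log2 scale (0.27 over all genes for each), and 0.15 with olaparib and 0.18 with talazoparib (0.18 and 0.17 over all genes).

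**Figure D2:**
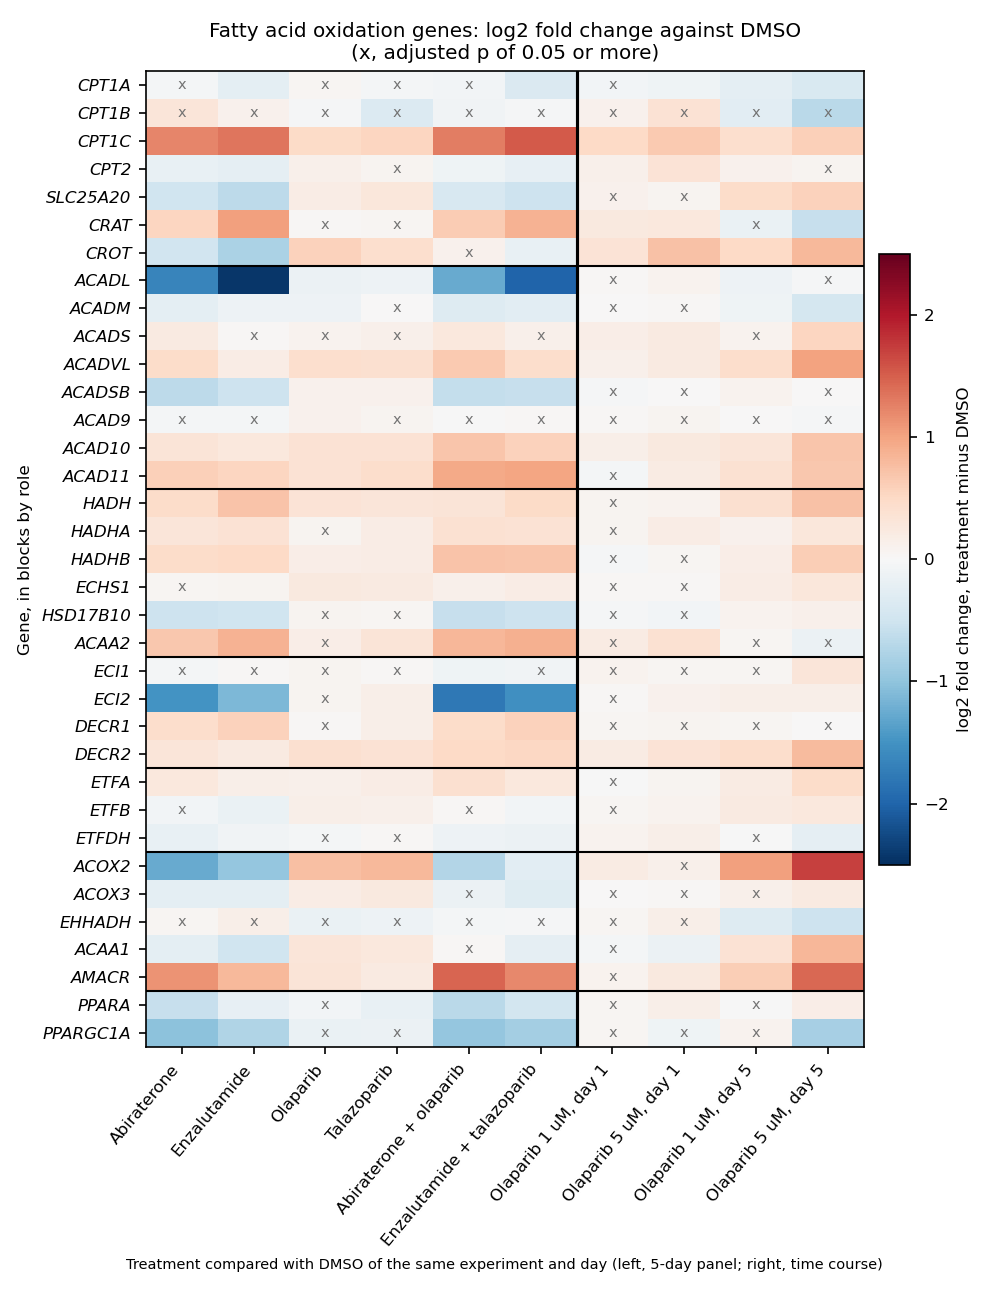
Log2 fold change against DMSO of the same experiment and day for the 35 genes (rows, in blocks by role) in the 6 panel treatments (left of the heavy line) and 4 olaparib groups of the time course (right), with blue for falls and red for rises and a cross where the adjusted p was 0.05 or more. The deepest falls are ACADL and ECI2 under every treatment that holds an ARPi, and the strongest rise is ACOX2 at 5 µM olaparib on day 5, with 1.71 ± 0.055.

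The promoters of 4 genes are shown because ACADL and ECI2 had the largest falls under the ARPi, AMACR rose in each of the 6 panel treatments, and CROT fell with the ARPi and rose with the PARPi. Each is the 250 bases before the RefSeq start on GRCh38.p14, read 5′ to 3′ on the gene's strand, in lower case with GC boxes (GGGCGG) and CCAAT boxes (CCAAT) on either strand in capitals. They lie at chr2:210225448-210225697 (minus strand) for ACADL, chr6:4135576-4135825 (minus) for ECI2, chr5:34008051-34008300 (minus) for AMACR and chr7:87345414-87345663 (plus) for CROT.
ACADL: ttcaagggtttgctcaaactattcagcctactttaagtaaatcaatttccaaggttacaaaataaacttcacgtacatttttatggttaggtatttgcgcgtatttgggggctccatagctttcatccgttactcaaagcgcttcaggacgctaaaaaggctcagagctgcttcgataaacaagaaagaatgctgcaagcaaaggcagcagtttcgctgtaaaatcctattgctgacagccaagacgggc
ECI2: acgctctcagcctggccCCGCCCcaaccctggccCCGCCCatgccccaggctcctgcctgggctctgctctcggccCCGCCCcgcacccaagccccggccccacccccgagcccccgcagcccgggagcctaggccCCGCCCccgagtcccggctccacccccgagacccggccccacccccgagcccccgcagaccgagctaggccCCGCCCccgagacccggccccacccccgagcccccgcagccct
AMACR: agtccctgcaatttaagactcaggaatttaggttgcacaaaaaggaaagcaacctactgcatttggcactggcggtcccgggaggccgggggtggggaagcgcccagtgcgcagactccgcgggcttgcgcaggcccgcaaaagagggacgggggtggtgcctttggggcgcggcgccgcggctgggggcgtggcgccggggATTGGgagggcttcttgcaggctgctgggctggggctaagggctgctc
CROT: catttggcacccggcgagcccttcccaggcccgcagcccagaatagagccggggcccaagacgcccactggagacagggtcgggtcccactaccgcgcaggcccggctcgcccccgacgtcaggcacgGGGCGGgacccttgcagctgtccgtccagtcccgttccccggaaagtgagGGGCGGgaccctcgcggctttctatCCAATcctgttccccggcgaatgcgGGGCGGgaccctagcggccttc
The ACADL stretch was 42% G and C and held neither motif, whereas that of ECI2 was 81.6% G and C and held 5 GC boxes. AMACR held 1 CCAAT box and CROT 3 GC boxes and 1 CCAAT box. Over the 26 listed genes with an entry in the RefSeq promoter table, 20 (76.9%) held a GC box, against 42.3% of 27305 promoters of this length, and 8 (30.8%) a CCAAT box, against 33.0%. The nuclear receptor half-site AGGTCA was found in 1 of them, ACAD10 (3.85%, against 12.1%), and the steroid receptor half-site AGAACA in 0, against 12.4%. The motifs were chosen after the expression values were known, and a match of letters is a description, not a binding site.

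Carnitine shuttle genes moved in different directions under the ARPi. CPT1C rose from 2.58, 1.98 and 1.90 CPM in the 3 DMSO libraries (replicates A, B and C, in that order here and below) to 4.24, 5.21 and 5.48 under abiraterone and 5.77, 5.19 and 5.36 under enzalutamide. It stood at 2.55, 3.56 and 2.84 under olaparib, 3.01, 3.47 and 2.88 under talazoparib, 5.47, 4.75 and 5.44 under abiraterone with olaparib and 6.22, 6.5 and 5.94 under enzalutamide with talazoparib. Every library with an ARPi lay above every library without one, and the olaparib libraries overlapped those of DMSO. The log2 fold changes were 1.22 ± 0.14 (adjusted p = 3.8e-09, edgeR) with abiraterone, 1.34 ± 0.14 (2.9e-10) with enzalutamide and 0.55 ± 0.14 (0.003) with talazoparib. With olaparib it was 0.48 ± 0.15 (adjusted p = 0.0095, edgeR), a call lost without DMSO replicate B (0.43), DMSO replicate C (0.39) or olaparib replicate B (0.32) and in the fit on the groups compared alone (0.46). In the time course (replicates 1, 2 and 3, in that order) CPT1C read 1.59, 1.44 and 1.38 CPM under DMSO, 2.03, 2.00 and 2.21 at 1 µM and 2.56, 1.98 and 2.35 at 5 µM on day 1, and 1.32, 1.79 and 1.60 under DMSO, 1.90, 2.06 and 2.29 at 1 µM and 2.27, 2.22 and 2.62 at 5 µM on day 5. Olaparib libraries lay above the DMSO libraries of their day throughout, and the 5 µM changes were 0.65 ± 0.15 on day 1 and 0.60 ± 0.15 on day 5.

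CRAT, which makes acetylcarnitine from acetyl-CoA, rose with the ARPi in the panel, where neither PARPi alone passed the test. Its panel levels were 14.9, 13.3 and 12.5 CPM under DMSO, 19.1, 19.0 and 21 under abiraterone, 28.9, 26.7 and 27 under enzalutamide, 14.2, 13.0 and 14.4 under olaparib and 13.5, 14 and 14.4 under talazoparib. The combinations read 20.6, 21 and 21.9 with abiraterone and olaparib and 24.9, 24.5 and 25.3 with enzalutamide and talazoparib. The PARPi libraries overlapped those of DMSO, and the ARPi libraries did not. The change was 0.54 ± 0.065 with abiraterone (adjusted p = 6.2e-09, edgeR) and 1.02 ± 0.062 with enzalutamide (3e-16), and enzalutamide lay 0.48 ± 0.060 above abiraterone. In the time course CRAT read 8.98, 10.3 and 9.49 CPM under DMSO, 11.3, 11.2 and 11.7 at 1 µM and 11.2, 11.4 and 11.8 at 5 µM on day 1. On day 5 it read 10.7, 10.2 and 10.3 under DMSO, 9.39, 9.43 and 9.21 at 1 µM and 7.08, 6.26 and 7.74 at 5 µM. At 5 µM CRAT rose on day 1, by 0.26 ± 0.066, and fell on day 5, by 0.57 ± 0.070 on the log2 scale (adjusted p = 5.1e-09, edgeR), with no overlap with DMSO at either day.

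CROT, the peroxisomal carnitine octanoyltransferase, moved in opposite directions under the drug classes. It read 29.2, 30.5 and 30.6 CPM under DMSO, 22.9, 20.1 and 21.7 under abiraterone and 16.3, 17.7 and 17.9 under enzalutamide, and 43.1, 45.4 and 45.8 under olaparib and 43.0, 37.3 and 40.7 under talazoparib. Abiraterone with olaparib gave 30.6, 33.3 and 33.8 and enzalutamide with talazoparib 23.9, 29.4 and 26.9. The ARPi libraries all lay below DMSO and the PARPi libraries all above it, while both combinations overlapped it. The changes were -0.48 ± 0.066 and -0.80 ± 0.067 with the ARPi and 0.57 ± 0.061 and 0.42 ± 0.061 with olaparib and talazoparib (adjusted p = 2.1e-06 or lower, edgeR). CROT rose early in the time course, from 37.7, 36.3 and 36.3 CPM under DMSO to 45.5, 48.3 and 46.2 at 1 µM and 59.9, 61.7 and 60.6 at 5 µM on day 1. On day 5 it read 35.9, 35.9 and 35.2 under DMSO, 51.2, 50.3 and 50.5 at 1 µM and 62.2, 60.2 and 64.7 at 5 µM. The 5 µM change of 0.73 ± 0.032 on day 1 was the largest day-1 change of the 35 genes.

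The remaining shuttle genes changed less. SLC25A20, the carrier of the inner membrane, averaged 23.2 ± 0.929 CPM under DMSO, 16.5 ± 0.188 under abiraterone and 14.8 ± 0.890 under enzalutamide, falls of 0.50 ± 0.056 and 0.65 ± 0.055 on the log2 scale. It rose with talazoparib (0.29 ± 0.052) and on day 5 of the time course (0.45 ± 0.051 at 1 µM and 0.58 ± 0.051 at 5 µM). CPT2 fell slightly with both ARPi (-0.18 ± 0.037 and -0.22 ± 0.037) and rose by 0.34 ± 0.033 at 5 µM on day 1. CPT1A, the CPT1 form with the highest level here, fell with enzalutamide (-0.25 ± 0.054) and with its combination (-0.36 ± 0.054). It also fell on day 5 of the time course (-0.25 ± 0.042 at 1 µM and -0.39 ± 0.043 at 5 µM). In the panel, however, 1 µM olaparib for 5 days gave 0.043 for CPT1A, not past the test. For CPT1B no comparison with DMSO passed the test, and its values ran from -0.68 ± 0.31 to 0.36 ± 0.28.

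**Figure D3:**
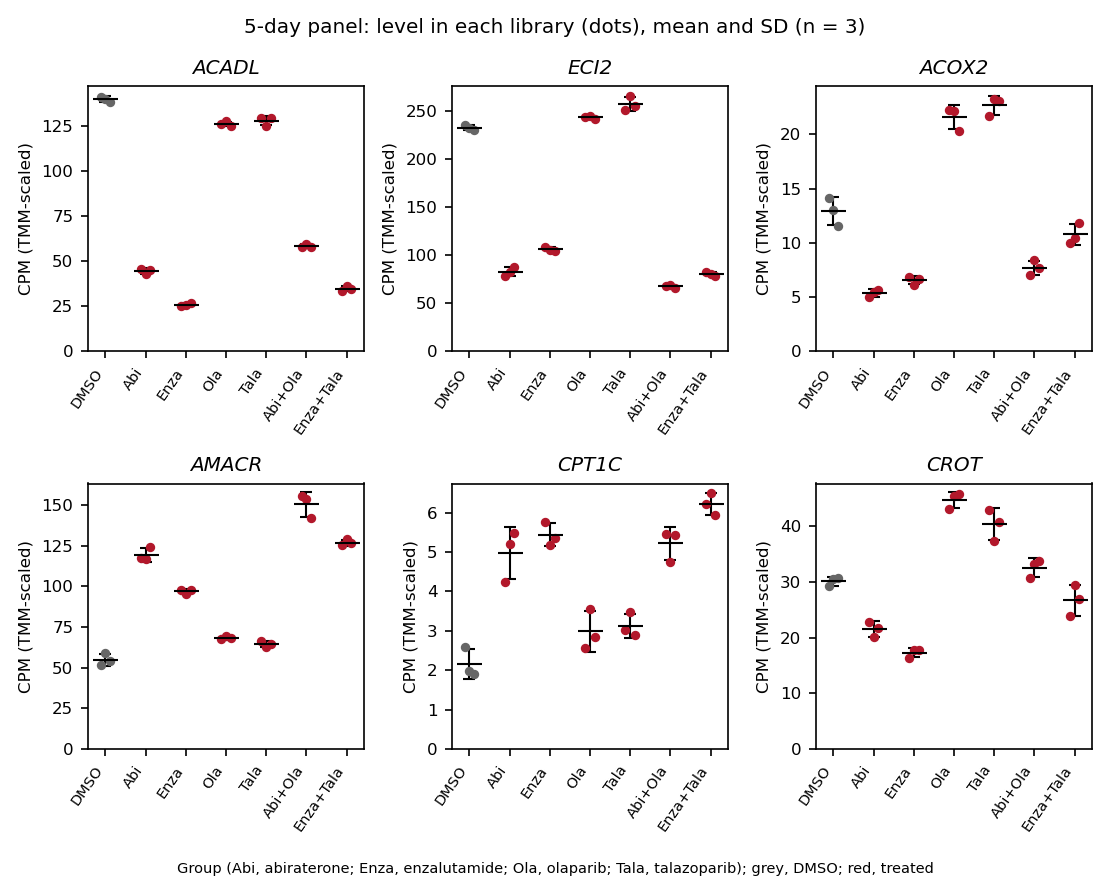
Level of 6 genes in each of the 21 panel libraries, in TMM-scaled CPM on axes that start at 0, with dots for libraries and the mean with SD of 3 per group. ACADL and ECI2 are low in the 4 groups with an ARPi, AMACR and CPT1C are high in them, and ACOX2 and CROT lie below DMSO with an ARPi alone and above it with a PARPi alone.

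Among the acyl-CoA dehydrogenases, ACADL, the long-chain enzyme, had the largest fall of all 35 genes. It read 141, 139.8 and 138 CPM under DMSO, 45.6, 42.9 and 45.3 under abiraterone and 25.1, 25.7 and 26.6 under enzalutamide. Olaparib gave 126, 127 and 125, talazoparib 129, 125 and 129, abiraterone with olaparib 57.9, 59.6 and 57.8 and enzalutamide with talazoparib 33.7, 36.2 and 34.5. The 7 groups fell into separate ranges apart from the overlap of olaparib with talazoparib. The fall was 1.65 ± 0.034 on the log2 scale with abiraterone (adjusted p = 5.9e-30, edgeR) and 2.43 ± 0.036 with enzalutamide (1.7e-34), beside 0.15 ± 0.031 with olaparib and 0.13 ± 0.031 with talazoparib. In the dose and time series ACADL read 119, 113 and 118 CPM under DMSO, 119.6, 116 and 122 at 1 µM and 123, 125 and 124 at 5 µM on day 1, and 129, 129 and 126 under DMSO, 118, 117 and 117 at 1 µM and 129, 123 and 123 at 5 µM on day 5. Its olaparib changes there stayed within -0.13 ± 0.027 and 0.087 ± 0.027, and the latter lost its call without day-1 DMSO replicate 2 (0.065).

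ACADVL rose in all 10 comparisons with DMSO. Panel levels were 290.3, 255 and 268 CPM under DMSO, 392, 367 and 362 under abiraterone, 305, 299 and 318 under enzalutamide, 352, 374 and 363 under olaparib and 374, 358 and 336 under talazoparib. They were 411, 448 and 426 with abiraterone and olaparib and 353, 380.3 and 371 with enzalutamide and talazoparib. Each treated library lay above all DMSO libraries. During the time course it read 226, 227 and 236 CPM under DMSO, 251, 249 and 258 at 1 µM and 275, 267 and 268 at 5 µM on day 1, then 242, 255 and 240.0 under DMSO, 329, 331 and 333 at 1 µM and 486, 488 and 513 at 5 µM on day 5. The changes grew from 0.14 ± 0.024 and 0.23 ± 0.024 on day 1 to 0.43 ± 0.024 and 1.01 ± 0.024 on day 5 (adjusted p = 8.2e-30 for the last, edgeR).

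ACAD11, which acts on longer acyl chains, read 14.2, 12.3 and 11.8 CPM under DMSO, 19.4, 19.6 and 18.6 under abiraterone, 20.2, 17.4 and 17.5 under enzalutamide, 17.3, 16.1 and 15.5 under olaparib and 17.8, 17.6 and 16.3 under talazoparib. The combinations read 23.1, 26.9 and 22.8 with abiraterone and olaparib and 22.3, 27.5 and 25.9 with enzalutamide and talazoparib, above each single drug. ACAD11 rose by 0.94 ± 0.084 and 0.99 ± 0.082 with the combinations, where the drugs alone gave 0.60 ± 0.086 and 0.37 ± 0.086 for abiraterone and olaparib and 0.53 ± 0.085 and 0.44 ± 0.085 for enzalutamide and talazoparib. Over the olaparib time course it read 11.5, 10.7 and 11.9 CPM under DMSO, 11.1, 10.6 and 11.1 at 1 µM and 13.8, 13.7 and 11.5 at 5 µM on day 1, and 10.5, 11.5 and 10.6 under DMSO, 13.9, 14.1 and 14.2 at 1 µM and 17.5, 16.3 and 17.9 at 5 µM on day 5. Day-1 DMSO overlapped both olaparib groups of that day, and the day-5 groups followed the dose, with 0.37 ± 0.064 at 1 µM and 0.67 ± 0.063 at 5 µM.

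ACAD10, a related long-chain enzyme, averaged 24.4 ± 1.86 CPM under panel DMSO and rose in all 10 comparisons (at 1 µM on day 1 the call was lost without DMSO replicate 1 or 3 or olaparib replicate 2 or 3, at 0.13 to 0.15), up to 0.69 ± 0.059 with abiraterone and olaparib and 0.70 ± 0.044 at 5 µM on day 5. ACADSB, which works on short branched chains, fell from 176 ± 4.96 to 111 ± 1.66 CPM with abiraterone and to 123 ± 2.97 with enzalutamide. ACADM, the medium-chain enzyme, fell with abiraterone (-0.25 ± 0.037) and at 5 µM on day 5 (-0.43 ± 0.038). ACADS, the short-chain enzyme, rose by 0.55 ± 0.047 at 5 µM on day 5. ACAD9, an assembly factor of complex I, kept within -0.051 ± 0.033 and 0.10 ± 0.033 in every comparison with DMSO.

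Of the 6 genes for the mitochondrial steps that follow, 4 rose and 1 fell with abiraterone (66.7% and 16.7%, against 25.8% and 27.1% of all genes) and 5 rose and 1 fell with enzalutamide (83.3% and 16.7%, against 27.0% and 26.3%). With olaparib 3 rose (50%, against 19.6%) and with talazoparib 5 (83.3%, against 18.4%). The enzalutamide count includes ECHS1 at 0.072 ± 0.027, whose call was lost under 14 of 28 alternatives, among them the fit on the groups compared alone and the fits without DMSO replicate B or C or enzalutamide replicate B or C (0.059 to 0.067). ACAA2, the mitochondrial thiolase, read 6.49, 5.62 and 4.84 CPM under DMSO, 8.19, 9.21 and 9.30 under abiraterone, 10.9, 9.62 and 10.1 under enzalutamide, 6.61, 6.66 and 5.73 under olaparib and 5.8, 8.34 and 6.85 under talazoparib. The combinations read 10.2, 9.98 and 9.82 with abiraterone and olaparib and 10.5, 10.0 and 10.6 with enzalutamide and talazoparib. The libraries with an ARPi lay above those of DMSO, with changes of 0.66 ± 0.11 and 0.86 ± 0.11 for abiraterone and enzalutamide. The talazoparib value of 0.32 ± 0.11 lost its call without DMSO replicate B (0.32), DMSO replicate C (0.22) or talazoparib replicate B (0.16) and in the fit on the groups compared alone (0.31). Across days and doses ACAA2 read 4.38, 3.77 and 4.34 CPM under DMSO, 5.05, 4.94 and 4.47 at 1 µM and 5.84, 5.6 and 4.80 at 5 µM on day 1, and 4.67, 5.15 and 4.76 under DMSO, 5.18, 5.01 and 4.89 at 1 µM and 4.23, 4.49 and 4.50 at 5 µM on day 5. It rose at 5 µM on day 1 (0.38 ± 0.10), while on day 5 the value was -0.14 ± 0.10.

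HADHA and HADHB, the subunits of the trifunctional protein, rose together, HADHB from 138 ± 4.12 CPM to 188 ± 4.40 with abiraterone, 194 ± 2.10 with enzalutamide and 225 ± 5.67 with abiraterone and olaparib. For HADHA the corresponding changes were 0.31 ± 0.034, 0.35 ± 0.034 and 0.37 ± 0.034. HADH, the short-chain hydroxyacyl-CoA dehydrogenase, averaged 79.1 ± 2.39 CPM under DMSO, 108 ± 1.69 under abiraterone, 130.0 ± 3.98 under enzalutamide, 101 ± 4.11 under olaparib and 97.0 ± 3.82 under talazoparib. Its combination levels, 99.3 ± 3.46 and 109.5 ± 1.35 CPM, were lower than those of the ARPi alone. HSD17B10, a multifunctional dehydrogenase that also belongs to mitochondrial RNase P, fell with abiraterone (-0.52 ± 0.034) and enzalutamide (-0.49 ± 0.034).

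ECHS1 read 213, 205 and 204 CPM under DMSO, 219.9, 207 and 220.2 under abiraterone, 211, 221 and 221 under enzalutamide, 249, 239 and 243 under olaparib and 242, 243 and 244 under talazoparib. With the combinations it read 223, 226 and 228 for abiraterone and olaparib and 237, 235 and 237 for enzalutamide and talazoparib. The PARPi libraries lay above DMSO without overlap, with 0.24 ± 0.027 for olaparib and 0.23 ± 0.027 for talazoparib. With olaparib over time it read 228, 223 and 225 CPM under DMSO, 228, 228 and 229 at 1 µM and 233, 230.3 and 227 at 5 µM on day 1, and 225, 215 and 215 under DMSO, 247, 249 and 247 at 1 µM and 259, 265 and 269 at 5 µM on day 5. It rose on day 5, by 0.18 ± 0.022 at 1 µM and 0.28 ± 0.022 at 5 µM.

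ECI2, which shifts double bonds so that unsaturated chains can be oxidized, fell with both ARPi. Its libraries read 235, 233 and 229.8 CPM under DMSO, 78.3, 82.4 and 87.5 under abiraterone and 109, 106 and 105 under enzalutamide. They read 244, 244 and 242 under olaparib, 251, 266 and 255 under talazoparib, 68.3, 68.6 and 66.0 under abiraterone with olaparib and 82.6, 80.8 and 78.1 under enzalutamide with talazoparib. Each combination lay below its ARPi alone without overlap. The fall was 1.49 ± 0.033 with abiraterone (adjusted p = 3.7e-29, edgeR) and 1.13 ± 0.032 with enzalutamide (7.5e-26) on the log2 scale, and 1.78 ± 0.033 and 1.53 ± 0.032 with the combinations. In the dose and time series ECI2 read 169, 167 and 168 CPM under DMSO, 171, 171 and 172 at 1 µM and 177, 184 and 179.5 at 5 µM on day 1, and 193, 193 and 185 under DMSO, 213, 206 and 209 at 1 µM and 206, 213 and 215 at 5 µM on day 5, with rises of 0.14 ± 0.024 and 0.15 ± 0.024 on day 5. ECI1, its mitochondrial relative, was measured at -0.056 ± 0.041 with abiraterone and 0.032 ± 0.040 with enzalutamide and did not pass the test. DECR1, the mitochondrial dienoyl-CoA reductase, rose with abiraterone (0.43 ± 0.057) and enzalutamide (0.58 ± 0.055). DECR2, its peroxisomal counterpart, which overlaps NME4 in the annotation, averaged 20.5 ± 0.624 CPM under DMSO and rose in all 10 comparisons, up to 0.80 ± 0.050 at 5 µM on day 5. At 1 µM on day 1 its call was lost without DMSO replicate 1 (0.17).

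For the electron transfer flavoprotein, ETFA rose in each panel treatment, from 0.12 ± 0.025 with olaparib to 0.41 ± 0.025 with abiraterone and olaparib. ETFB rose with olaparib (0.14 ± 0.028) and talazoparib (0.12 ± 0.028) and fell with enzalutamide (-0.16 ± 0.028). ETFDH, which hands the electrons to ubiquinone, fell with abiraterone (-0.19 ± 0.036) and at 5 µM olaparib on day 5 (-0.23 ± 0.031), where ETFA rose by 0.47 ± 0.021 and ETFB by 0.27 ± 0.029.

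Among the 5 peroxisomal enzymes, 1 rose and 3 fell with each ARPi (20.0% and 60.0%, against 25.8% and 27.1% of all genes for abiraterone and 27.0% and 26.3% for enzalutamide), and 4 rose with each PARPi (80.0%, against 19.6% for olaparib and 18.4% for talazoparib). The olaparib call of ACOX3 was lost under 22 of 28 alternatives, and its abiraterone call under total count scaling (-0.17) and without abiraterone replicate B (-0.17). ACOX2, the oxidase of branched chains and bile acid intermediates, read 14.2, 13.0 and 11.5 CPM under DMSO, 5.03, 5.43 and 5.70 under abiraterone and 6.87, 6.16 and 6.70 under enzalutamide. It read 22.3, 22.1 and 20.3 under olaparib, 21.6, 23.2 and 23.1 under talazoparib, 7.07, 8.38 and 7.68 under abiraterone with olaparib and 10.0, 10.5 and 11.9 under enzalutamide with talazoparib. Libraries with an ARPi alone lay below all DMSO libraries and those with a PARPi alone above them, while enzalutamide with talazoparib overlapped DMSO. The changes were -1.26 ± 0.089 with abiraterone (adjusted p = 2.3e-14, edgeR), -0.97 ± 0.085 with enzalutamide (5.1e-12), 0.75 ± 0.076 with olaparib (7.5e-10) and 0.82 ± 0.075 with talazoparib (1e-10). During the time course ACOX2 read 8.33, 8.04 and 8.06 CPM under DMSO, 9.80, 9.30 and 9.22 at 1 µM and 8.91, 9.26 and 8.36 at 5 µM on day 1, and 9.32, 8.72 and 9.16 under DMSO, 20.2, 17.6 and 17.9 at 1 µM and 29.3, 30.2 and 29.7 at 5 µM on day 5. Day 5 gave 1.03 ± 0.058 at 1 µM and 1.71 ± 0.055 at 5 µM (adjusted p = 1.4e-25, edgeR), whereas day 1 gave 0.12 ± 0.066 at 5 µM and 0.21 ± 0.065 at 1 µM, a call lost without day-1 DMSO replicate 2 (0.20) or 3 (0.21) or 1 µM replicate 1 (0.19).

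AMACR rose with both classes. Its panel levels were 51.8, 58.8 and 54.1 CPM under DMSO, 118, 117 and 124 under abiraterone, 98.0, 95.1 and 97.9 under enzalutamide, 67.5, 69.3 and 68.1 under olaparib and 66.4, 63.0 and 64.4 under talazoparib. They were 156, 154 and 142 under abiraterone with olaparib and 125, 129 and 127 under enzalutamide with talazoparib. Every treated library lay above DMSO, with 1.12 ± 0.039 for abiraterone (adjusted p = 4.7e-23, edgeR), 0.82 ± 0.039 for enzalutamide (4.4e-19), 0.31 ± 0.040 for olaparib and 0.23 ± 0.040 for talazoparib. Over the olaparib time course AMACR read 39.1, 37.1 and 39.8 CPM under DMSO, 40.4, 41.8 and 40.2 at 1 µM and 45.9, 43.8 and 46.8 at 5 µM on day 1, and 55.4, 56.5 and 55.6 under DMSO, 88.8, 83.0 and 85.2 at 1 µM and 147, 152 and 150.2 at 5 µM on day 5. DMSO itself rose by 0.53 ± 0.033 between the days, and on day 5 olaparib added 0.62 ± 0.031 at 1 µM and 1.43 ± 0.030 at 5 µM.

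ACAA1, the peroxisomal thiolase, read 91.9, 97.6 and 99.4 CPM under DMSO, 83.3, 80.1 and 81.7 under abiraterone, 66.7, 70.8 and 67.7 under enzalutamide, 114, 117 and 124 under olaparib and 121, 111 and 114 under talazoparib. With abiraterone and olaparib it read 99.5, 98.4 and 95.4 and with enzalutamide and talazoparib 82.5, 82.0 and 82.3. As for ACOX2 and CROT, libraries with an ARPi alone lay below DMSO and those with a PARPi alone above, with -0.24 ± 0.037, -0.49 ± 0.037, 0.29 ± 0.036 and 0.26 ± 0.036 for abiraterone, enzalutamide, olaparib and talazoparib. Across days and doses ACAA1 read 81.0, 81.1 and 79.1 CPM under DMSO, 78.2, 79.1 and 76.6 at 1 µM and 75.2, 71.2 and 72.3 at 5 µM on day 1, and 94.9, 94.8 and 96.9 under DMSO, 121, 122 and 124 at 1 µM and 165, 173 and 172 at 5 µM on day 5. At 5 µM it fell by 0.14 ± 0.028 on day 1 and rose by 0.83 ± 0.027 on day 5. ACOX3, another branched-chain oxidase, fell with enzalutamide (-0.25 ± 0.072) and rose with talazoparib (0.24 ± 0.069). EHHADH, the bifunctional enzyme of the peroxisome, was measured between -0.16 ± 0.073 and 0.15 ± 0.071 against DMSO in the panel without passing the test. Talazoparib added to enzalutamide gave -0.18 ± 0.070, a call lost under 17 of 28 alternatives, among them RLE scaling and the fits without any 1 of the libraries compared. It fell on day 5, by 0.33 ± 0.068 at 1 µM and 0.52 ± 0.069 at 5 µM on the log2 scale.

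The regulators fell with the ARPi. PPARGC1A, a coactivator of mitochondrial biogenesis, read 8.46, 9.34 and 8.31 CPM under DMSO, 4.10, 4.77 and 4.03 under abiraterone, 6.67, 4.86 and 4.14 under enzalutamide, 7.42, 8.56 and 7.36 under olaparib and 7.26, 7.47 and 8.80 under talazoparib. It read 4.23, 4.10 and 5.15 with abiraterone and olaparib and 4.98, 4.60 and 4.83 with enzalutamide and talazoparib. Libraries with an ARPi lay below DMSO, by -1.02 ± 0.13 for abiraterone (adjusted p = 2.2e-08, edgeR) and -0.75 ± 0.12 for enzalutamide (3.4e-06). With olaparib over time it read 7.27, 5.99 and 7.04 CPM under DMSO, 7.29, 6.39 and 7.37 at 1 µM and 7.04, 6.34 and 5.42 at 5 µM on day 1, and 6.43, 6.99 and 6.07 under DMSO, 6.97, 6.40 and 7.29 at 1 µM and 3.89, 3.42 and 3.57 at 5 µM on day 5. Only the last group stood apart, 0.84 ± 0.10 below day-5 DMSO on the log2 scale (adjusted p = 5.6e-09, edgeR). PPARA, the fatty acid sensing nuclear receptor, averaged 28.4 ± 1.12 CPM under DMSO, 19.1 ± 1.68 under abiraterone and 24.8 ± 0.781 under enzalutamide, falls of 0.58 ± 0.059 and 0.20 ± 0.056. PPARA also fell with talazoparib (-0.19), while panel olaparib gave -0.064, not past the test. At 5 µM olaparib it rose on day 1 (0.15) and day 5 (0.17). The talazoparib and 5 µM calls were each lost under 1 alternative.

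Drugs of the same class were compared directly. Enzalutamide and abiraterone differed for 16 of the 35 genes, 8 in each direction, where 19.8% of all genes tested differed. Under RLE or total count scaling, 7 lay higher and 9 lower with enzalutamide, and leaving out 1 library gave 12 to 17. ETFDH and ACADM lost their calls under 18 and 14 of 28 alternatives. The largest gaps were ACADL, 0.79 ± 0.038 lower with enzalutamide, and CRAT, 0.48 ± 0.060 higher, followed by PPARA (0.38 ± 0.059) and ECI2 (0.36 ± 0.033), which both lay higher with enzalutamide. Talazoparib and olaparib differed for 2 genes by edgeR, ACADM (0.13 ± 0.037) and HADHA (0.11 ± 0.034), against 8.36% of all genes. Other settings gave between 0 and 4, with 0 without olaparib replicate C or talazoparib replicate C. The HADHA call was lost under 21 of 28 alternatives and the ACADM call under 2. For ACOX2 the talazoparib level was 0.071 ± 0.072 above that of olaparib and for CROT -0.15 ± 0.059, neither past the test.

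Adding a PARPi to an ARPi asked whether the second drug still moved these genes. Olaparib added to abiraterone changed 14 of the 35 genes, 12 up and 2 down (29.2% of all genes changed). Talazoparib added to enzalutamide changed 21, 14 up and 7 down (34.4%), or 14 and 5 under RLE scaling. Of its falls, that of CRAT (-0.14) was lost under 18 of 28 alternatives. CROT rose by 0.60 ± 0.066 and 0.62 ± 0.067, ACOX2 by 0.52 ± 0.10 and 0.71 ± 0.085, ACADL by 0.39 ± 0.036 and 0.43 ± 0.038 and AMACR by 0.33 ± 0.037 and 0.39 ± 0.037 on olaparib and talazoparib in turn. ECI2 fell further, by 0.29 ± 0.035 and 0.40 ± 0.033, from levels that the ARPi had already lowered. HADH, which either ARPi had raised, was lower with the added PARPi by 0.12 ± 0.035 (-0.10 without abiraterone with olaparib replicate B, a lost call) and 0.25 ± 0.034, and still lay above DMSO. The departure of a combination from the sum of its drugs was past the threshold for 4 genes with abiraterone and olaparib (1 above and 3 below the sum, against 12.8% of all genes). With enzalutamide and talazoparib it was past it for 6 (1 above and 5 below, against 12.6%, or 2 above and 4 below under RLE or total count scaling). Leaving out 1 library gave 4 to 8 for the latter pair. There ECHS1 (-0.11) and HADHA (-0.17), both below the sum, lost their calls under 24 and 7 of 28 alternatives. ACADL lay above the sum in both, by 0.54 ± 0.047 and 0.55 ± 0.049. HADH (-0.47 ± 0.050 and -0.54 ± 0.049) and ECI2 (-0.35 ± 0.046 and -0.55 ± 0.045) lay below it in both. For ACOX2 the departures were -0.22 ± 0.12 and -0.11 ± 0.11, for CROT 0.027 ± 0.090 and 0.20 ± 0.090 and for AMACR 0.020 ± 0.055 and 0.16 ± 0.055, none past the test.

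Olaparib at 1 µM for 5 days was given in both experiments, each with its own DMSO libraries. Of the 35 genes, 21 were called in the panel and 24 in the time course, and 19 in both, which is 90.5% of the panel calls and 79.2% of those in the time course. All 19 had the same direction, 17 higher and 2 lower. Over the 17960 genes tested in both experiments, 5426 were called in both, which is 82.2% of the panel calls and 63.8% of those in the time course, and 99.7% of them had the same direction. ACOX2 rose by 0.75 ± 0.076 in the panel and 1.03 ± 0.058 in the time course, CROT by 0.57 ± 0.061 and 0.51 ± 0.033, ACADVL by 0.42 ± 0.051 and 0.43 ± 0.024, and HADH by 0.35 ± 0.036 and 0.39 ± 0.028. The 2 lower genes were ACADL (-0.15 ± 0.031 and -0.13 ± 0.027) and ACADM (-0.13 ± 0.037 and -0.10 ± 0.037, the latter lost without DMSO replicate 1 or 2 or olaparib replicate 2 or 3, at -0.084 to -0.088). AMACR rose in both but by 0.31 ± 0.040 in the panel and 0.62 ± 0.031 in the time course.

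**Figure D4:**
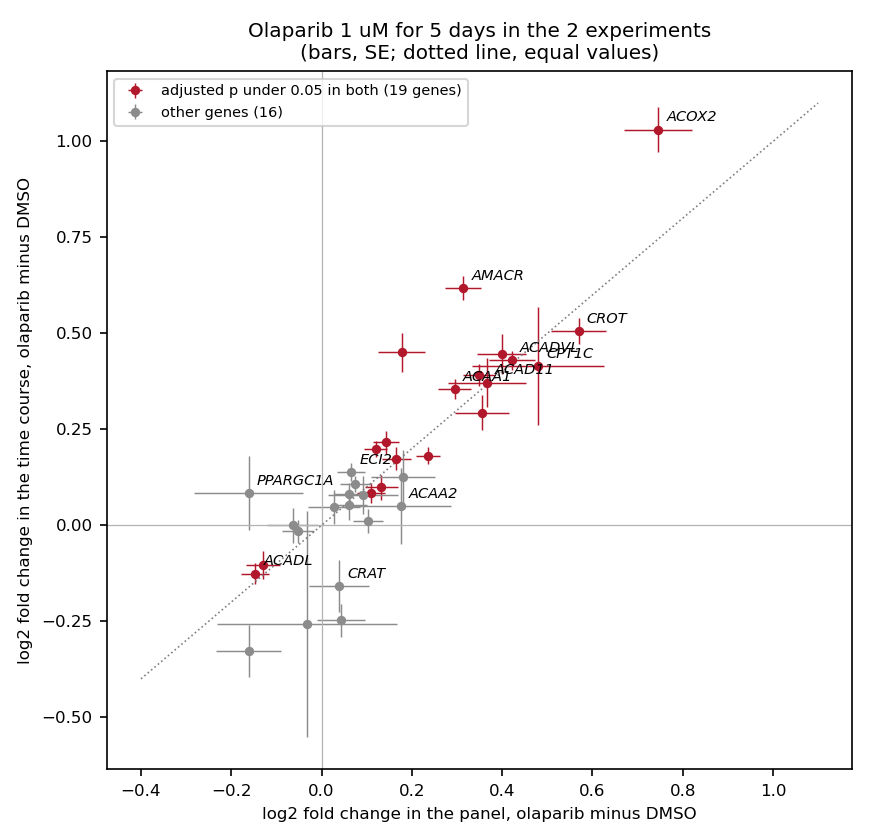
Log2 fold change of the 35 genes after 5 days of 1 µM olaparib in the panel (horizontal) and in the time course (vertical), each against its own 3 DMSO libraries, with bars for the SE and a dotted line of equal values. The 19 genes called in both (red) lie in the upper right or lower left quadrant, with ACOX2 farthest out.

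The time course asked how dose and duration shaped these changes. On day 1, 1 µM olaparib raised 10 genes and lowered 0 by edgeR (28.6% raised, against 6.3% of all 18502 genes rising and 9.52% falling), with 0 lowered at an unadjusted p under 0.05 and 0 by DESeq2. Without day-1 DMSO replicate 3, 5 genes were called. At 5 µM, 19 rose and 2 fell (against 21.6% and 23.4% of all genes, or 26 and 1 with scaling by total counts). On day 5, 20 rose and 4 fell at 1 µM (against 23.4% and 22.9%), and 22 rose and 6 fell at 5 µM (against 34.4% and 33.9%, or 19 and 11 with that scaling). The median of the 35 genes was 0.058, 0.10, 0.11 and 0.27 in these groups in turn, beside values from -0.0083 to 0.015 over all genes. Under total count scaling these medians were 0.083, 0.15, 0.086 and 0.18, so that 5 µM on day 1 lay above 1 µM on day 5, beside 0.025, 0.064, -0.023 and -0.091 over all genes. The falls at 5 µM on day 5 were PPARGC1A, CRAT, EHHADH, ACADM, CPT1A and ETFDH, and the largest rises ACOX2, AMACR, ACADVL, ACAA1 and CROT. Between the doses on day 5, 25 genes differed, 18 higher and 7 lower at 5 µM (53.6% of all genes differed), or 15 and 10 with total count scaling.

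The DMSO libraries also moved between the days, with 12 genes higher and 1 lower on day 5 (against 11.1% and 13.4% of all genes), or 8 in all without day-5 DMSO replicate 2. AMACR rose most, by 0.53 ± 0.033, followed by CPT1A (0.27 ± 0.042) and ACAA1 (0.25 ± 0.028). The olaparib effect itself differed between the days for 20 genes at 1 µM (16 more positive and 4 more negative on day 5, against 29.8% of all genes, or 11 and 6 with total count scaling). At 5 µM it differed for 26 (17 and 9, against 54.9%, or 13 and 14 with total count scaling, which shifted the median of all genes by -0.13). ACOX2 gained 1.59 ± 0.087 and AMACR 1.19 ± 0.045 between day 1 and day 5 at 5 µM, while the effect on CROT changed by 0.081 ± 0.046, which did not pass the test.

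**Figure D5:**
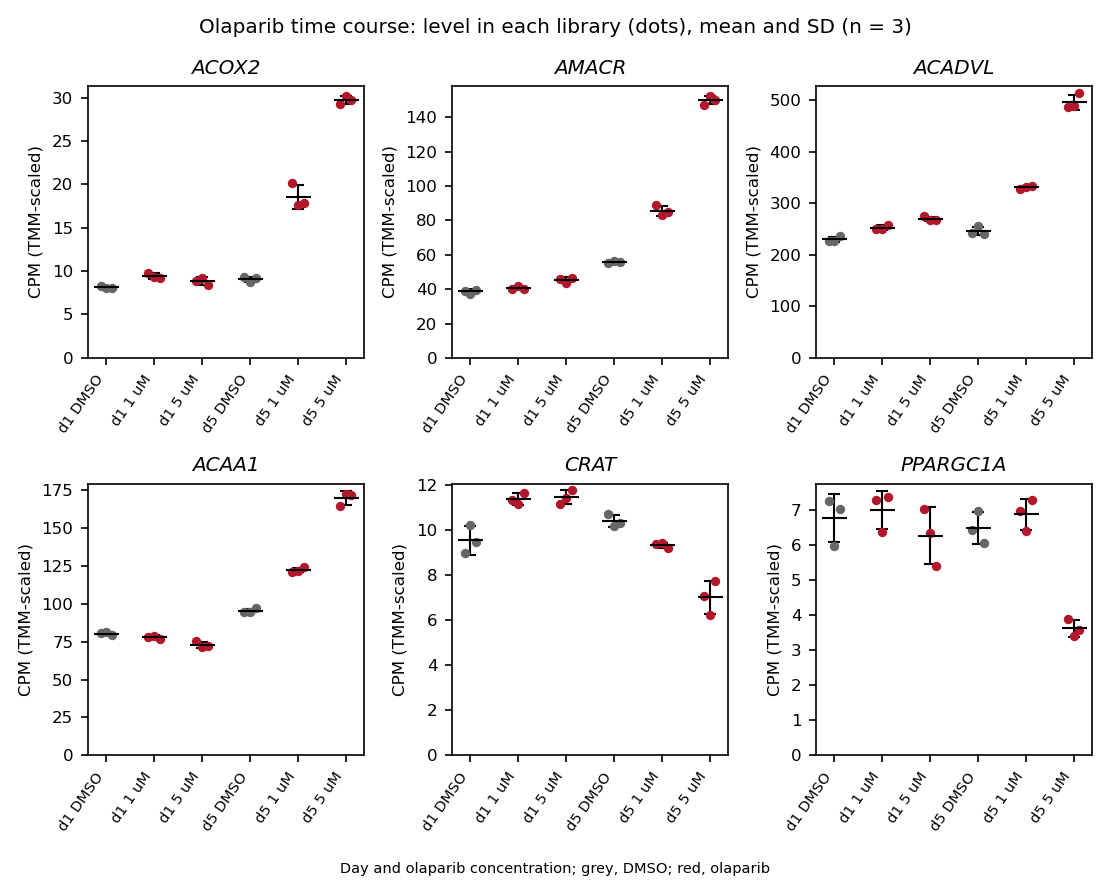
Level of 6 genes in each of the 18 time course libraries, in TMM-scaled CPM on axes that start at 0, with dots for libraries and the mean with SD of 3 per group. ACOX2, AMACR, ACADVL and ACAA1 climb with dose on day 5. CRAT at 5 µM is up on day 1 and down on day 5, and PPARGC1A is low only at 5 µM on day 5.

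Genes around the pathway were read from a second list of 87 (peroxisome biogenesis, other peroxisomal proteins, thioesterases and ketone bodies, branched-chain oxidation, nuclear receptors), of which 77 could be tested in each experiment. With olaparib 30 rose and 8 fell (39.0% and 10.4% of the 77, against 19.6% and 16.0% of all genes), and with talazoparib 32 and 9 (41.6% and 11.7%, against 18.4% and 15.4%). Abiraterone gave 24 and 27 (31.2% and 35.1%, against 25.8% and 27.1%) and enzalutamide 25 and 28 (32.5% and 36.4%, against 27.0% and 26.3%). Abiraterone with olaparib gave 27 and 22 (35.1% and 28.6%, against 31.1% each way), and enzalutamide with talazoparib 31 and 28 (40.3% and 36.4%, against 31.2% and 31.3%). Of 9 branched-chain genes, 6 rose with olaparib (66.7%, against 19.6% of all genes) and 7 with talazoparib (77.8%, against 18.4%), while with abiraterone 2 rose (22.2%, against 25.8%) and 5 fell (55.6%, against 27.1%). Of 16 thioesterase and ketone body genes, 10 fell with abiraterone (62.5%, against 27.1%) and 9 with enzalutamide (56.2%, against 26.3%). On day 5 of the time course 34 of the neighbours rose and 8 fell at 1 µM (44.2% and 10.4%, against 23.4% and 22.9%), and 41 and 23 at 5 µM (53.2% and 29.9%, against 34.4% and 33.9%). In the panel, DDO, the peroxisomal D-aspartate oxidase, rose in each treatment from a low level of 0.47 CPM under DMSO. Its changes ran from 1.72 ± 0.22 with olaparib to 3.45 ± 0.20 with abiraterone and olaparib. ACSM1, a medium-chain acyl-CoA synthetase, fell by 2.02 ± 0.21 on the log2 scale with abiraterone and by 1.91 ± 0.20 with enzalutamide and rose by 0.82 ± 0.17 with olaparib and 0.94 ± 0.17 with talazoparib. PEX10, which recycles the peroxisomal import receptor, fell from 110.2 CPM under DMSO to 39.8 with abiraterone (-1.47 ± 0.043) and 32.8 with enzalutamide (-1.75 ± 0.043). It also fell when olaparib was given with abiraterone (-1.64 ± 0.043) and talazoparib with enzalutamide (-1.80 ± 0.043). ABCD2, a peroxisomal importer of very long chains, rose by 2.33 ± 0.40 with enzalutamide and CD36, a fatty acid uptake receptor, by 1.80 ± 0.34 with abiraterone and olaparib, both from under 0.3 CPM. CD36 rose with the ARPi alone too (1.30 ± 0.35 with abiraterone and 1.16 ± 0.35 with enzalutamide), and so did ABCD2 with abiraterone (1.55 ± 0.42). HAO2, a peroxisomal hydroxyacid oxidase at 0.53 CPM under DMSO, fell with both ARPi (-1.60 ± 0.53 and -2.19 ± 0.55). ACAD8, of valine breakdown, rose by 0.51 ± 0.046 with olaparib and 0.43 ± 0.046 with talazoparib. NUDT7, a coenzyme A hydrolase of the peroxisome at 0.80 CPM under DMSO, rose by 0.73 ± 0.23 with talazoparib. It also rose with abiraterone (1.01 ± 0.23) and enzalutamide (0.78 ± 0.23).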

How the data were processed

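Libraries of C4-2B cells were made with a stranded mRNA kit. Per the study's methods and the submitters' processing notes, the authors trimmed reads with Trim Galore, aligned them to GRCh38 with STAR and quantified genes with Salmon; the deposited values are estimated counts per gene, given as whole numbers and not normalized. Ensembl identifiers were paired with symbols through a GENCODE table, in which 62666 of 63187 had a symbol. Panel and time course were fitted separately in R 4.3.3 with edgeR 4.0.16 (filterByExpr, TMM, robust quasi-likelihood test, Benjamini-Hochberg adjustment), on 18625 and 18502 genes. The scripts were tested on simulated data. Levels are TMM-scaled CPM, and n is 3 throughout. The members and lists were chosen with earlier results of these data known. Every value per library is given for the 12 members with the largest change and for the top genes per length. Replicates of a group differed by 2.11 to 5.63 times the counting variance (chi-square per degree of freedom), so none was a copy of another. Alternatives were RLE and total count scaling, other filters, DESeq2 1.42.0, fits on the compared groups alone, a replicate block and leaving out each library.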

Additional observations from a re-analysis of the deposited data

Results flagged for a closer look

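The effect of olaparib differed between day 1 and day 5, by the edgeR test of that difference, for 20 of the 35 genes at 1 µM, where 29.8% of all genes differed. The largest log2 differences were 0.82 for ACOX2, 0.54 for AMACR, 0.43 for ACAD11 and -0.41 for CRAT. At 5 µM it differed for 26 of the 35 genes, 17 more positive and 9 more negative on day 5 (13 and 14 under total count scaling), where 54.9% of all genes differed. Among these differences were 1.59 for ACOX2, 1.19 for AMACR, 0.97 for ACAA1 and -0.83 for CRAT. The share of counts from mitochondrially encoded genes rose between the same groups, from at most 11% at 5 µM on day 1 to at least 14.3% on day 5, and its part in these differences was not tested.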

How the results depend on the processing

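Of 389 gene and comparison pairs past the threshold, 307 stayed past it under each alternative and 82 lost it under at least 1, 78 of them with an absolute log2 fold change under 0.3. Among the 77 pairs of 1.5-fold or more, 0 lost it. HADHA reversed for the 5 µM difference between days, from 0.11 to -0.026 under total count scaling. For talazoparib against olaparib the count of 2 became 1 under RLE scaling, 1 on the groups compared alone and 4 by DESeq2, and it ran from 0 to 3 when libraries were left out. Leaving out libraries gave 5 to 12 calls for 1 µM on day 1 and 8 to 14 for DMSO between days. The replicate labels share only a number: same-label deviations correlated at -0.13 to 0.12, and 0 of 36 pairs of groups had every r over 0.1. With the replicate block, talazoparib against olaparib gave 1 call, and the other counts stayed within 1.5 times of those without it.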
